A study of Mus musculus with 2 samples.

Results

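The genes of fatty acid uptake and beta-oxidation described here are a list of 37 symbols chosen by function, from the lipase and carriers that bring fatty acids to the myofiber through the enzymes of the mitochondrial spiral to the flavoproteins that take up its electrons. This list and those set beside it were chosen with earlier results of these data known, so they were not drawn blind to the values. Of the 37, 36 had a row among the 35163 gene rows of the table, and 32 had at least 500 counts over the fast 2A and fast 2X cells compared here. Cpt1b, the muscle carnitine palmitoyltransferase of the outer mitochondrial membrane, was not analysed here. Slc27a4, Plin5, Lipe and Acadvl had a row but lay under 500 counts.

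All cells came from 1 untreated C57BL/6J mouse older than 3 months, from its flexor digitorum brevis (FDB), a foot muscle made up mostly of fast fibers. After collagenase digestion, a large particle sorter picked intact myofibers and also shorter pieces, which the paper describes as apparent rod-shaped fragments. Fragments of scissor-cut muscle were added to the same plates. Transcripts were counted by mcSCRB-seq, a plate method in which each captured molecule carries a unique molecular identifier (UMI) near the 3' end and is counted once. Cells with more than 5000 genes and under 20% mitochondrial counts were kept, which left 171 of 763 cells, and each was classed by the largest of Myh1, Myh2, Myh4, Myh7 and Myh8, the genes of the myosin heavy chains that set fiber type.

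This gave 51 fast 2A cells led by Myh2, 117 fast 2X cells led by Myh1, 2 slow cells led by Myh7 and 1 fast 2B cell led by Myh4. The classes are compared within this animal, and cells of one mouse are not replicates, so no p-value was computed. Levels are CPM, the counts of a gene summed over the cells of a class, divided by all gene counts of that class and scaled to a common total of 1e6. Their exact Poisson 95% limits, and the exact binomial limits of the log2 ratios, cover counting error only. Total counts per cell were 54160 to 616396 with a median of 206510 in fast 2A, and 28827 to 1542996 with a median of 255726 in fast 2X. The median mitochondrial share was 6.96% in fast 2A and 5.01% in fast 2X. The fast 2X cells include 3 of the cut fragments. The muscle genes Acta1, Ckm, Ttn, Neb, Tnnt3, Mylpf, Des, Casq1, Ryr1 and Mb summed to 147419 CPM in fast 2A and 140142 CPM in fast 2X.

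Long-chain fatty acids reach a myofiber from albumin or from triglyceride that lipoprotein lipase splits at the capillary wall. They cross the membrane with the help of CD36 and the fatty acid transport proteins, are bound by the heart-type fatty acid binding protein, joined to coenzyme A by an acyl-CoA synthetase and carried into the mitochondrion as carnitine esters. There the beta-oxidation spiral shortens them by repeated dehydrogenation, hydration, dehydrogenation and thiolysis, and electrons pass through the electron transfer flavoprotein to ubiquinone. Between fast 2A and fast 2X fibers, the former are known as the more oxidative and the latter as the more glycolytic.

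Among the 32 members with at least 500 counts, 9 were at least 1.5-fold higher in fast 2A than in fast 2X and 1 was at least 1.5-fold lower. Among all 8649 genes with at least 500 counts, 2.57% were higher by this rule and 7.31% were lower. The higher members were Lpl, Cd36, Fabp3 and Slc27a1 of fatty acid uptake, Slc25a20 of the carnitine shuttle, Acadl, Acadm and Acaa2 of the beta-oxidation spiral, and the enoyl isomerase Eci1. The lower member was Ucp3. The log2 ratio was above 0 in 29 of the 32 members, compared with 3192 of all 8649 genes, and its median was 0.40 in the members and -0.09 in all genes.

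All 36 members together took 3813 CPM in fast 2A and 2890 CPM in fast 2X, or 0.381% and 0.289% of all counts, a log2 ratio of 0.40 (95% limits 0.38 to 0.42). In single cells the sum ran from 2722 CPM through a median of 3926 to 6210 CPM in fast 2A, and from 1231 CPM through a median of 2958 to 4729 CPM in fast 2X. The classes overlapped from 2722 to 4729 CPM. Another scaling moved all ratios together. With TMM factors, which align the bulk of genes between both sums, every ratio rose by 0.11, the members at least 1.5-fold higher became 12 and those lower 0, and over all genes 379 were higher and 389 lower in place of 222 and 632. In cells with under 10% mitochondrial counts 9 members were higher and the median log2 ratio was 0.40, and in cells thinned to equal depth 12 were higher and the median was 0.45.

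**Figure D1:**
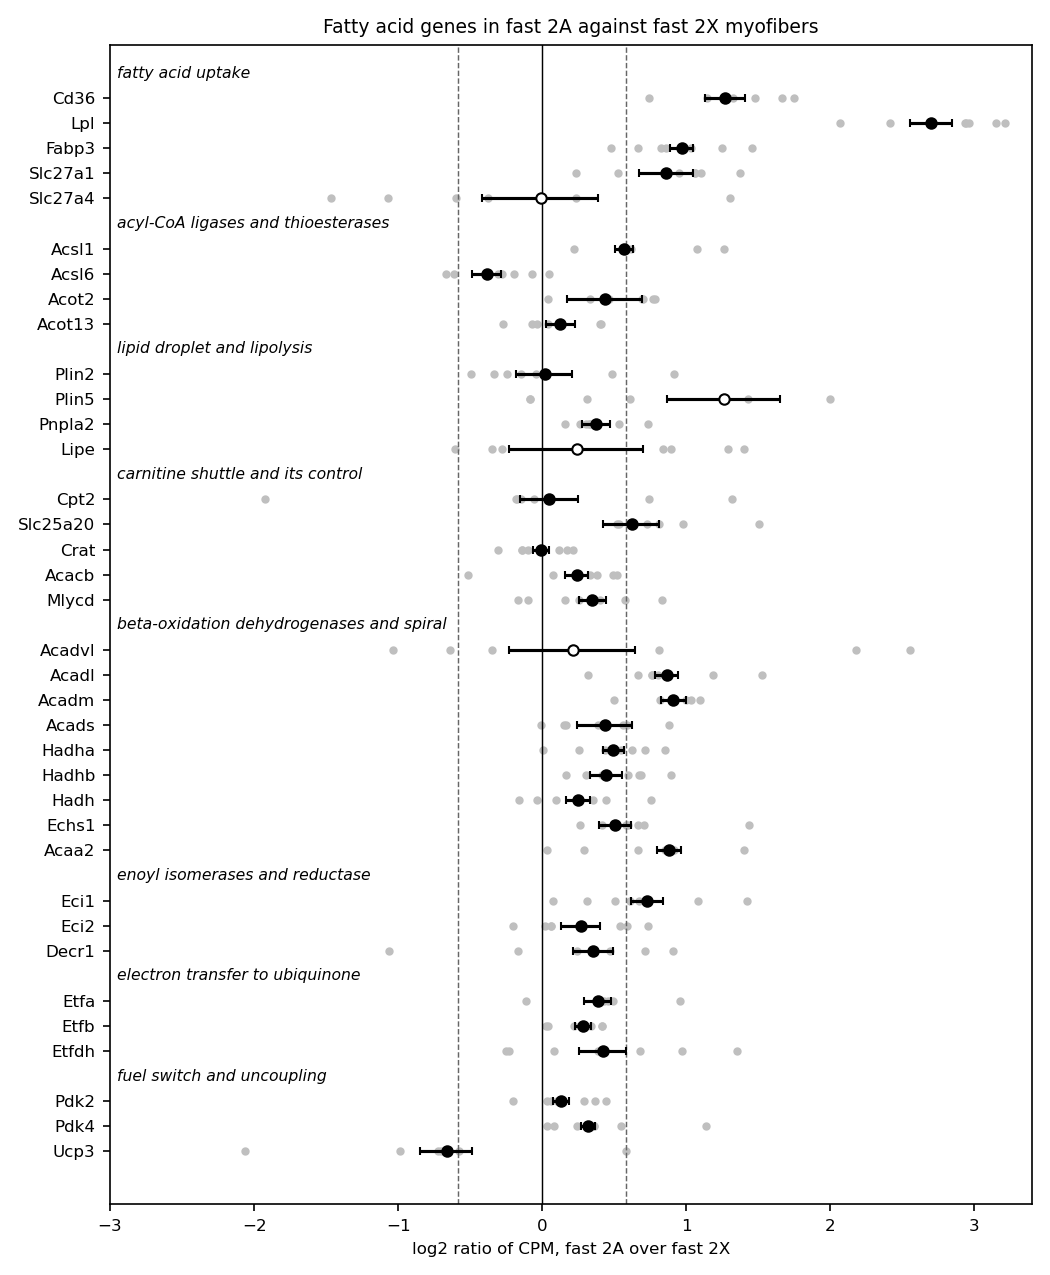
Log2 ratio of CPM in fast 2A over fast 2X for the 36 members in order of role, with exact 95% limits for counting error. Black points are members with at least 500 counts, open points are those below it, grey points are the values within single plates, and dashed lines mark 1.5-fold. The uptake genes Lpl and Cd36 lie farthest to the right among the black points and Ucp3 farthest to the left.

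The 8 plates differ in library and lane, and 7 of them held at least 3 cells of each class. Within these 7 plates, the 9 higher members each had a log2 ratio above 0 in 7 of 7. They were called from sums that include these plates, so the shared sign is partly built in. Acsl1, Acot2, Pnpla2, Hadha, Hadhb, Echs1, Etfb and Pdk4, which were not called, also lay above 0 in 7 of 7. The share of all genes that do so is not given here. Ucp3 lay below 0 in 6 of 7 plates and at 0.58 in the plate that held 4 fast 2A cells.

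Start-site sequences were read for the members from RefSeq windows of GRCm38.p6 that hold 250 bases before and 50 after each start, and 31 of the 37 members matched with 39 windows. The DR1 element bound by PPAR with RXR, AGGTCA followed by any 1 base and AGGTCA again, was in 0 of 39 member windows and 0.0396% of all 32851 windows on either strand. TCAAGGTCA, the element of estrogen-related receptors, was in 1 member window, of Acsl6, and in 0.423% of all windows. Its core AGGTCA, which is part of both longer motifs, was in 10 of 39 member windows (25.6%) and 16.3% of all. CCAAT was in 46.2% and 37.4%, GGGCGG in 64.1% and 35.7%, and TATAAA in 2.56% and 13.6%. A match describes these letters in this window only.

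The 9 members with AGGTCA were Cd36, Acadm, Acacb, Acadvl, Echs1, Plin2, Plin5, Ucp3 and Acsl6. Of the 9 members at least 1.5-fold higher in fast 2A these include 2. Lpl and Acaa2, also among those higher members, had no window and were not read. Cpt1b, Crat, Decr1 and Acot13 had no window either. The log2 ratios of the 9 members with AGGTCA ran from -0.66 to 1.27. As examples of higher and lower ratios, the 250 bases before an annotated start of Cd36, Acadm, Ucp3 and Acsl6 are shown. They run 5' to 3' along the gene, with AGGTCA or its reverse complement TGACCT in capitals. Only windows that hold AGGTCA were chosen for this. The further Acsl6 windows, from 54303954 and from 54314653, hold no AGGTCA. The Cd36 window lies inside the span of the gene, which ends at 17888801, so it belongs to an internal start. The matches begin 228 bases before the start in Cd36, 249 in Acadm, 149 and 44 in Ucp3 and 189 and 167 in Acsl6, and the second in Acsl6 is part of the longer element.
Cd36 (chr5:17835897-17836146, minus strand): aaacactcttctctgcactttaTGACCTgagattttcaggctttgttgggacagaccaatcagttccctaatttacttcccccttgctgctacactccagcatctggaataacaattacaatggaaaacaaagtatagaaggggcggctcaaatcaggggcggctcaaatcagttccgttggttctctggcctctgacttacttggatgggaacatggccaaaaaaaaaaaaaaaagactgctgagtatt
Acadm (chr3:153944644-153944893, minus strand): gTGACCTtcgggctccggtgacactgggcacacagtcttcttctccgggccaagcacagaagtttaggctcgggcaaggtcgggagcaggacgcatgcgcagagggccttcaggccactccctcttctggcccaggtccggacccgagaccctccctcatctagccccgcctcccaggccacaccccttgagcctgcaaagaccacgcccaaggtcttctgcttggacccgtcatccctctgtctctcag
Ucp3 (chr7:100472741-100472990, plus strand): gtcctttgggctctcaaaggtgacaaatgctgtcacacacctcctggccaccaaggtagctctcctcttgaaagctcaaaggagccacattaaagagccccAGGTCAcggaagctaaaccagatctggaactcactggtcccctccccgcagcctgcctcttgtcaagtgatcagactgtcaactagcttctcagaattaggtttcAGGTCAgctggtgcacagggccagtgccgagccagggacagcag
Acsl6 (chr11:54303574-54303823, plus strand): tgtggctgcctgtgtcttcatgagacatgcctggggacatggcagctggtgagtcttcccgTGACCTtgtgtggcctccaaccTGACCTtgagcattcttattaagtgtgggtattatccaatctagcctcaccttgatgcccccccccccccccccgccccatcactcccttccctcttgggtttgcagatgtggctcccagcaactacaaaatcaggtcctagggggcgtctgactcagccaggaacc

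Fatty acid uptake showed the widest difference of the 8 roles. Its 5 genes summed to 362.7 CPM in fast 2A and 148.2 CPM in fast 2X, a log2 ratio of 1.29 (limits 1.23 to 1.35). Lpl encodes lipoprotein lipase and lies on chromosome 8 from 68880491 to 68907448 of GRCm38. Single fast 2A cells held 17.2 CPM at the lowest, 87.9 at the median and 360.5 at the highest, while fast 2X cells held 0, 11.8 and 235.1 CPM. All 51 fast 2A cells were above the fast 2X median, and 6 of 117 fast 2X cells were above the fast 2A median. Summed Lpl was 98.7 CPM (limits 93.1 to 104.5) in fast 2A and 15.2 CPM (limits 14.0 to 16.5) in fast 2X, a log2 ratio of 2.70 (limits 2.56 to 2.84), and the 7 plates ranged from 2.07 to 3.21. After each cell was thinned to 28827 counts, Lpl was found in 88.2% of fast 2A cells and 38.5% of fast 2X cells, compared with 100% and 87.2% before thinning.

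Cd36, the membrane fatty acid translocase (chromosome 5, 17781690 to 17888801), had 0 CPM at the lowest, 55.4 at the median and 168.0 at the highest in fast 2A cells. Fast 2X cells had 0, 23.8 and 192.9 CPM. The ranges overlapped fully, and 41 of 51 fast 2A cells were above the fast 2X median. The class sums were 63.0 and 26.1 CPM, a log2 ratio of 1.27 (limits 1.13 to 1.41).

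Fabp3, the heart-type fatty acid binding protein (chromosome 4, 130308595 to 130315463), had 18.5, 137.5 and 685.3 CPM as the lowest, median and highest of the fast 2A cells and 0, 77.8 and 228.8 CPM in the fast 2X cells. Of the fast 2A cells, 14 exceeded the highest fast 2X cell. The log2 ratio was 0.97 (limits 0.89 to 1.05), from 163.8 and 83.8 CPM. Of the 66-base stretches of Fabp3 transcripts, 25.6% also occur in a Fabp3 pseudogene, so that some reads of the length used here could belong to either.

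Slc27a1, which encodes fatty acid transport protein 1 (chromosome 8, 71568882 to 71587302), ran from 0 through 27.9 to 238.5 CPM in fast 2A cells and from 0 through 15.3 to 86.0 CPM in fast 2X cells. The medians were set apart less than the cells of either class, and 28 of 117 fast 2X cells were above the fast 2A median. The sums of 31.4 and 17.3 CPM gave a log2 ratio of 0.86 (limits 0.67 to 1.04). Its relative Slc27a4 had 5.79 and 5.82 CPM, with 69 and 228 counts, a log2 ratio of -0.01 (limits -0.42 to 0.39).

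**Figure D2:**
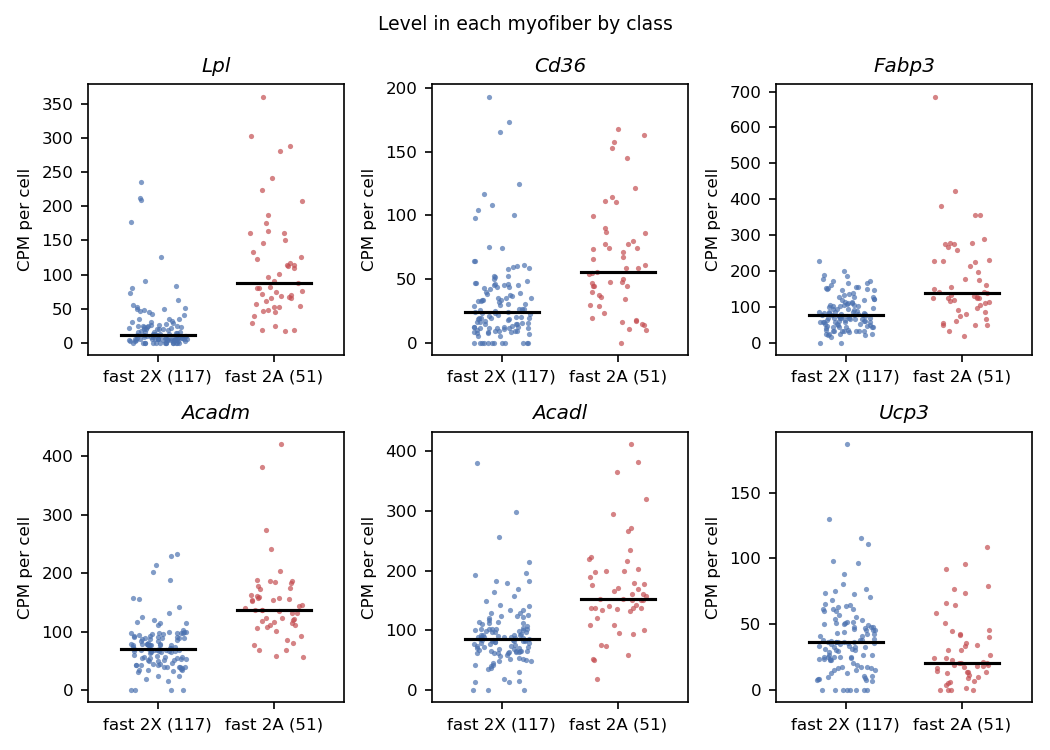
CPM in each cell for 6 members, with fast 2X cells in blue, fast 2A cells in red and the class median as a black line. For Lpl all 51 red points lie above the median of the blue points, while for Ucp3 the blue median of 36.2 CPM lies above the red median of 20.8 CPM.

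Adipocytes and endothelial cells are also known for Cd36, and adipocytes for Lpl, and markers of both were read in the same cells. Without Car3, which myofibers also make in large amounts, the other 9 adipocyte markers summed to 21.6 CPM in fast 2A and 27.6 CPM in fast 2X, and Adipoq had 2 and 10 counts. Without Tek, the other 11 endothelial markers summed to 77.4 and 99.5 CPM, with 0 to 886.3 CPM over fast 2A cells and 0 to 2508 CPM over fast 2X cells. Of these lists 5 of 9 and 3 of 11 genes had a ratio above 0. Pecam1 was 25.0 and 24.5 CPM, Flt1 19.5 and 29.7 CPM, Fabp4 3.70 and 7.53 CPM. The adipocyte marker Plin1 went the other way, with 3.95 and 2.76 CPM. Car3 and Tek were set aside after their values were seen. With all markers kept, the adipocyte list was 4718 and 3280 CPM, nearly all of it Car3, and the endothelial list 167.7 and 190.4 CPM. In an alternative chosen after seeing the data, the 25% of cells with the highest sum of both lists without Car3 and Tek were left out, which kept 42 fast 2A and 85 fast 2X cells. The log2 ratio was then 2.75 for Lpl and 1.41 for Cd36, and 9 members were at least 1.5-fold higher.

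No acyl-CoA ligase or thioesterase passed 1.5-fold. Acsl1, the main long-chain acyl-CoA synthetase of muscle, ran from 90.3 through a median of 236.9 to 530.3 CPM in fast 2A cells and from 0 through 139.2 to 513.5 CPM in fast 2X cells. Only 9 of 117 fast 2X cells were above the fast 2A median. It was the member just outside the rule, at 1.48-fold (log2 0.57, limits 0.50 to 0.63), while Slc25a20 was the member just inside at 1.54-fold. The other synthetase, Acsl6, went the opposite way with 83.1 CPM in fast 2A and 108.5 CPM in fast 2X, a log2 ratio of -0.39 (limits -0.49 to -0.29). Acsl6 overlaps the antisense gene Gm12224 over 13111 bases, and whether the counting used strand is not given in the sources used here. The thioesterases Acot2 and Acot13, which release free fatty acid from acyl-CoA, had log2 ratios of 0.43 and 0.13. For Acot2, 23.3% of its 66-base stretches occur in other genes, mostly in its neighbor Acot1.

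Of the lipid droplet genes, the 2 with at least 500 counts lay under 1.5-fold, and all 4 summed to a log2 ratio of 0.34 (limits 0.26 to 0.42). Pnpla2 encodes adipose triglyceride lipase, the first enzyme of triglyceride breakdown. It ran from 26.8 through 105.4 to 252.2 CPM in fast 2A cells and from 0 through 72.4 to 313.8 CPM in fast 2X cells, and the class ranges overlapped almost wholly. Its sums were 100.2 and 77.2 CPM, a log2 ratio of 0.38 (limits 0.28 to 0.47) that was above 0 in 7 of 7 plates. Plin2, a droplet coat protein, did not differ beyond counting error at 24.1 and 23.8 CPM. Plin5, the coat protein that ties droplets to mitochondria, had 96 and 132 counts, or 8.06 and 3.37 CPM, a log2 ratio of 1.26 (limits 0.86 to 1.65) that lay above 0 in 4 of 6 plates. A single fast 2X cell held 180.1 CPM of Plin5. Lipe, hormone-sensitive lipase, had 54 and 150 counts and lies wholly within an antisense gene, 4732471J01Rik, so its counts cannot be told apart from that gene's without strand.

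The carnitine shuttle differed little as a whole, with 590.9 CPM in fast 2A and 536.6 CPM in fast 2X over its 5 measured genes, a log2 ratio of 0.14 (limits 0.10 to 0.18). Slc25a20, the carnitine-acylcarnitine carrier of the inner membrane (chromosome 9, 108662088 to 108684641), ran from 0 through 23.5 to 99.9 CPM in fast 2A cells and from 0 through 15.4 to 176.6 CPM in fast 2X cells. The ranges overlapped fully. Its sums of 27.0 and 17.5 CPM gave a log2 ratio of 0.62 (limits 0.42 to 0.81). The call was lost in several settings, since the ratio was 0.58 with cells of under 30% mitochondrial counts and with slow cells joined to fast 2A, 0.55 as a mean over cells and without lane 1, and 0.54 without plate 708. Without the 25% of cells with the highest adipocyte and endothelial marker sum, most of it Car3, it was 0.30. That filter kept 28 of 51 fast 2A and 99 of 117 fast 2X cells, and with Car3 and Tek not counted the ratio was 0.65.

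Crat, carnitine acetyltransferase, did not differ beyond counting error at 288.3 and 289.3 CPM, with cell medians of 293.4 and 283.9 CPM within ranges of 129.2 to 755.8 and 66.5 to 645.1 CPM. The log2 ratio was -0.00 with limits of -0.06 to 0.05. Cpt2, which returns the acyl group to coenzyme A inside the mitochondrion, had a log2 ratio of 0.05 (limits -0.15 to 0.25). Acacb makes malonyl-CoA, the inhibitor of carnitine palmitoyltransferase 1, and Mlycd removes it, and their log2 ratios were 0.24 (limits 0.16 to 0.32) and 0.35 (limits 0.25 to 0.44). Cpt1b lies entirely within a longer gene model on the same strand, Gm44502, chosen for mention after its values were seen. Gm44502 had 176.4 CPM in fast 2A and 143.9 CPM in fast 2X, a log2 ratio of 0.29 (limits 0.22 to 0.37), and 77.6% of the 66-base stretches of Cpt1b transcripts occur in it as well. Those counts cannot be assigned to Cpt1b.

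In the beta-oxidation spiral the 9 genes summed to 964.3 CPM in fast 2A and 628.2 CPM in fast 2X, a log2 ratio of 0.62 (limits 0.59 to 0.65), and all 9 had a ratio above 0. The acyl-CoA dehydrogenases open each round and divide the chain lengths between them. Acadl, for long chains (chromosome 1, 66830839 to 66863277), ran from 18.5 through 152.4 to 411.5 CPM in fast 2A cells and from 0 through 85.0 to 380.1 CPM in fast 2X cells. Acadm, for medium chains (chromosome 3, 153922357 to 153944632), ran from 56.9 through 137.5 to 420.5 CPM and from 0 through 70.7 to 232.9 CPM. For Acadm 47 of 51 fast 2A cells, and for Acadl 45 of 51, were above the fast 2X median.

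The class sums were 167.4 and 91.9 CPM for Acadl, a log2 ratio of 0.86 (limits 0.79 to 0.94), and 141.9 and 75.5 CPM for Acadm, a log2 ratio of 0.91 (limits 0.82 to 1.00). Acads, for short chains, was 26.6 and 19.7 CPM with a log2 ratio of 0.43. Acadvl, the very long chain enzyme, had 61 and 173 counts and a log2 ratio of 0.21 whose limits of -0.23 to 0.64 span 0. Acadvl also overlaps Dvl2 of the opposite strand over 2119 bases.

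Acaa2, a thiolase that releases acetyl-CoA at the end of a round, ran from 21.8 through 146.5 to 401.7 CPM in fast 2A cells and from 0 through 83.9 to 320.6 CPM in fast 2X cells. Of the fast 2A cells, 42 of 51 were above the fast 2X median. The sums were 148.0 and 80.4 CPM, a log2 ratio of 0.88 (limits 0.80 to 0.97) that ranged from 0.03 to 1.40 over the plates.

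The trifunctional protein, which carries hydratase, dehydrogenase and thiolase activity for long chains, is made of the products of Hadha and Hadhb. These genes lie head to head on chromosome 5, Hadha from 30118304 to 30155162 on the minus strand and Hadhb from 30155248 to 30184593 on the plus strand. Hadha ran from 57.2 through 180.7 to 453.2 CPM in fast 2A cells and from 0 through 126.5 to 376.6 CPM in fast 2X cells. The log2 ratios of the pair were close to each other, at 0.49 (limits 0.42 to 0.57) for Hadha and 0.44 (limits 0.33 to 0.56) for Hadhb, though 17.7% of the 66-base stretches of Hadhb occur in other genes, mostly the gene model Gm13910. The short-chain enzymes Echs1, a hydratase, and Hadh, a dehydrogenase, had log2 ratios of 0.50 and 0.25.

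Among the auxiliary enzymes that handle double bonds, Eci1, an enoyl-CoA isomerase (chromosome 17, 24426641 to 24439348), ran from 4.15 through 81.0 to 193.0 CPM in fast 2A cells and from 0 through 49.9 to 279.2 CPM in fast 2X cells. Its sums of 87.7 and 53.0 CPM gave a log2 ratio of 0.73 (limits 0.62 to 0.84). The value was 0.43 after thinning and 0.54 in lane 1 alone, both under 1.5-fold. The isomerase Eci2 and the dienoyl-CoA reductase Decr1 had log2 ratios of 0.27 and 0.35.

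The 3 electron transfer genes had ratios above 0 and under 1.5-fold. Etfb, the beta subunit of the electron transfer flavoprotein, ran from 146.7 through 301.1 to 753.0 CPM in fast 2A cells and from 0 through 261.0 to 625.9 CPM in fast 2X cells. Its partner subunit Etfa had a log2 ratio of 0.39 (limits 0.29 to 0.48), the ubiquinone oxidoreductase Etfdh 0.42 (limits 0.26 to 0.58) and Etfb 0.28 (limits 0.23 to 0.34). Etfb shares 41.1% of its 66-base stretches with the overlapping gene model Gm45233, which itself held 22 counts.

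Of the genes that set the choice of fuel, Pdk4, a pyruvate dehydrogenase kinase induced by fasting, ran from 36.9 through 333.3 to 861.9 CPM in fast 2A cells and from 0 through 285.9 to 921.3 CPM in fast 2X cells. Its sums of 361.2 and 289.8 CPM gave a log2 ratio of 0.32 (limits 0.27 to 0.37), and its relative Pdk2 had 0.13 (limits 0.08 to 0.19). The overlap of single cells was nearly complete for Pdk4.

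Ucp3, the muscle mitochondrial carrier of the uncoupling protein family (chromosome 7, 100472990 to 100486432), was the member lower in fast 2A. It ran from 0 through 20.8 to 108.8 CPM in fast 2A cells and from 0 through 36.2 to 186.9 CPM in fast 2X cells. Of the fast 2X cells, 88 of 117 were above the fast 2A median. The sums were 25.2 CPM (limits 22.4 to 28.2) and 39.9 CPM (limits 38.0 to 41.9), a log2 ratio of -0.66 (limits -0.85 to -0.48). The ratio was -1.02 in lane 1 and -0.30 in lane 2. It was -0.37 as a mean over cells, -0.49 without plate 705 and -0.55 with TMM factors, all under 1.5-fold.

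Because most cells hold both Myh1 and Myh2, the members were also followed along the Myh2 share, the percentage of Myh2 in the sum of both. In 4 bands, of 48 cells under 20%, 69 cells from 20 to 50%, 35 cells from 50 to 80% and 16 cells of 80% and over, the summed members took 2832, 2964, 3889 and 3658 CPM. The first 2 bands hold fast 2X cells and the last 2 hold fast 2A cells. Median total counts of the bands were 330043, 176742, 228026 and 153911, so depth differed along the same axis. Lpl, Fabp3, Slc27a1, Pnpla2, Mlycd, Acadl, Acadm, Hadha and Hadhb were higher in each band than in the one before, Acsl6 and Ucp3 were lower in each, and 25 members had no such order. Of these orders, those of Fabp3, Acadl and Acadm had all 3 steps beyond counting error, while the other 8 members had at least 1 step whose limits span 0. The step between the middle bands is also the step between the classes compared above. The share of all genes with such orders is not given here, so these counts are not read as particular to the members.

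Lpl had 9.92, 21.8, 97.8 and 100.4 CPM in the bands, and the step between the middle bands, a log2 ratio of 2.16 (limits 1.98 to 2.34), was wider than the step before it at 1.14 (limits 0.89 to 1.39). The last step was 0.04 (limits -0.14 to 0.21). In bands of 10 points, Lpl was 28.9 CPM at 30 to 40%, 27.1 CPM at 40 to 50%, 60.5 CPM at 50 to 60%, 72.9 CPM at 60 to 70% and 121.4 CPM at 70 to 80%, with 6 to 27 cells in each band. The values on either side of 50%, with limits of 20.3 to 35.6 and 48.6 to 74.3, did not meet.

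Acadm followed the share with 72.5, 79.2, 133.2 and 159.7 CPM in the 4 bands, and its steps of 0.13, 0.75 and 0.26 all had limits above 0. Most members without such an order, Cd36 and Acaa2 among them, were instead highest from 50 to 80%, as was the sum of all members. The last step was -0.35 (limits -0.51 to -0.19) for Hadh and -0.22 (limits -0.32 to -0.11) for Etfb. For Pdk4 it was -0.34 (limits -0.44 to -0.25). Acaa2 went from 74.0 CPM through 88.5 to 164.5 CPM and was 114.4 CPM at 80% and over, a last step of -0.52 (limits -0.68 to -0.37). Ucp3 was 40.2, 39.6, 28.7 and 18.1 CPM, with no difference beyond counting error between the first bands and a last step of -0.67 (limits -1.07 to -0.28).

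**Figure D3:**
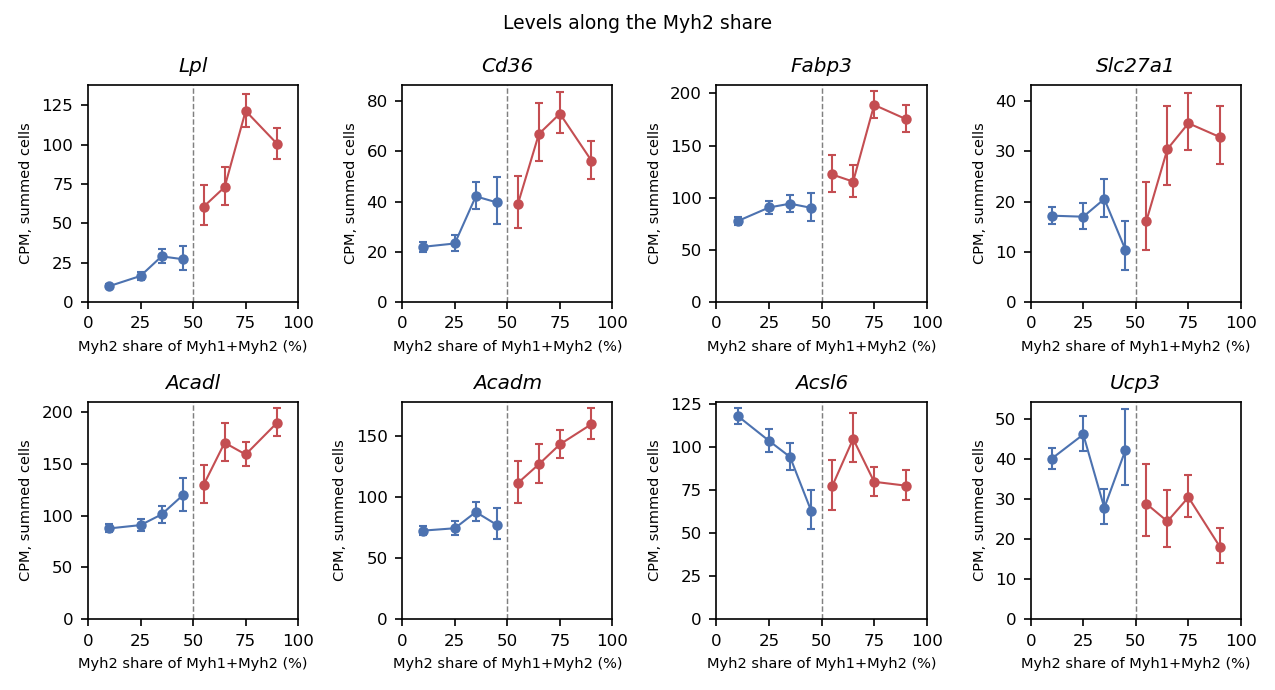
CPM of 8 members in summed cells against the Myh2 share, with exact Poisson 95% limits, in bands of 10 points with all cells under 20% and all of 80% and over joined. Blue bands hold fast 2X cells and red bands fast 2A cells. Lpl goes from 27.1 CPM in the last blue band to 60.5 CPM in the first red band.

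Across the 168 cells, Spearman's rho of CPM with the Myh2 share was 0.72 for Lpl, 0.53 for Acadm and 0.50 for both Cd36 and Acadl, and its median over the 36 members was 0.19, or 0.13 in cells thinned to equal depth. The cells share one mouse, their libraries and a spread of depth, so rho is a description only. Within the 117 fast 2X cells rho was 0.43 for Lpl, 0.37 for Cd36 and -0.34 for Acsl6. Over the members the median was 0.006 within fast 2X and -0.00022 within fast 2A, with 19 and 18 of 36 above 0. Within either class, about as many members went with the share as against it.

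**Figure D4:**
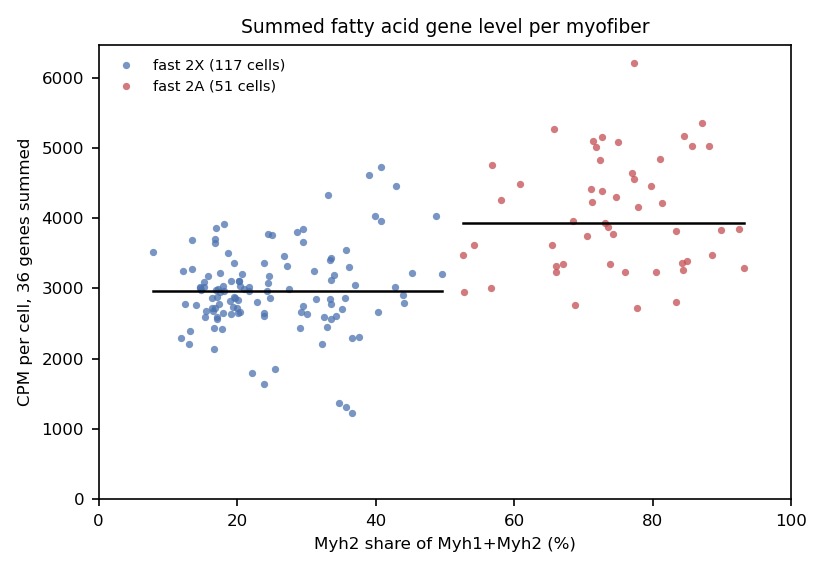
CPM of the 36 members summed in each cell against the Myh2 share of Myh1 and Myh2, with fast 2X cells in blue, fast 2A cells in red and class medians as black lines. The medians are 2958 and 3926 CPM, and the classes overlap from 2722 to 4729 CPM.

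Cell-to-cell variation was set against Poisson noise by the squared coefficient of variation that remains once counting noise is taken out. For Lpl it was 2.15 in fast 2X and 0.42 in fast 2A, so Lpl was more uneven among fast 2X cells, and for Cd36 it was 0.76 and 0.33. The uptake genes Slc27a1 and Fabp3 went the other way, with 0.39 and 0.22 in fast 2X and 0.93 and 0.43 in fast 2A. For Crat it was 0.083 and 0.094. Among the 22 members with at least 2000 counts, cells thinned to equal depth gave 231 pairs with a median rho of 0.06 over 117 fast 2X cells and 0.07 over 51 fast 2A cells. The pairs ran from -0.19 to 0.30 in fast 2X and from -0.43 to 0.46 in fast 2A, where Acadl and Hadhb had the highest value and 15 pairs were over 0.3, compared with 1 pair in fast 2X. The number of cells differs between the classes and the counts are sparse, so nothing is read from this.

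The single fast 2B cell and the 2 slow cells allow values only. Lpl was 186.8 CPM (limits 137.7 to 247.6) in the fast 2B cell and 87.7 and 129.2 CPM in the slow cells. Fabp3 was 388.5 and 367.7 CPM in the slow cells, above the fast 2A sum of 163.8 CPM, and 105.1 CPM in the fast 2B cell. Pdk4 was 46.7 CPM (limits 24.1 to 81.6) in the fast 2B cell and 317.5 and 248.4 CPM in the slow cells.

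The wider pathway was read from 119 further genes, of which 69 had at least 500 counts. Among these 9 were higher and 5 lower by 1.5-fold, and the median log2 ratio was 0.04, less than the 0.40 of the members. The highest were Scd1, the stearoyl-CoA desaturase, at 1.30, Ucp2, an uncoupling protein relative, at 1.04, Plin3, a droplet coat protein, at 0.98, and the cation and carnitine transporter Slc22a4 at 0.86. The lowest were Pdp1, the phosphatase that reactivates pyruvate dehydrogenase, at -1.79, malic enzyme Me1 at -0.68, the glycerol acyltransferase Gpam at -0.68 and the lipoprotein receptor Vldlr at -0.67. Beta-oxidation enzymes of the peroxisome had a median of 0.04 over 11 genes with 1 higher, and further mitochondrial beta-oxidation genes 0.02 over 14 genes with 0 higher. The medians of further genes of fuel switch and uncoupling, 0.36 over 11 genes, and of ketone use, 0.38 over 3 genes, were nearer to that of the members. Fatty acid synthesis had only 2 genes, Scd1 at 1.30 and Me1 at -0.68, and their median of 0.31 describes neither. Further genes of uptake and binding had a median of only 0.003 over 7 genes, with 2 higher and 1 lower, unlike the uptake genes among the members. The remaining groups lay between -0.04 and 0.00.

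For comparison, the median log2 ratio was 0.28 over 89 nuclear genes of the respiratory chain, 0.30 over 17 citric acid cycle genes and -0.34 over 14 glycolysis genes. Of these genes 3, 1 and 1 were at least 1.5-fold higher. The members' 9 of 32 at least 1.5-fold higher stood beside 3 of 89 in the respiratory chain, with no test of the difference.

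The 592 cells that did not pass the filters were compared on their non-mitochondrial counts. The members took 2708 CPM there and 3306 CPM in the kept cells, a log2 ratio of -0.29 (limits -0.31 to -0.27), and 7 of 36 had a ratio above 0. Among those with at least 500 counts over both sets of cells, 4 of 32 members and 4962 of 9742 genes had a ratio above 0. Of these 4 members, Cd36 had 128.9 CPM in the cells left out and 37.6 CPM in the kept cells, a log2 ratio of 1.78 (limits 1.66 to 1.89). Lpl was at 0.87, Cpt2 at 0.23 and Mlycd at 0.03 (limits -0.08 to 0.15). Of the members under 500 counts, Lipe was at 1.69 (limits 1.33 to 2.04), Slc27a4 at 0.73 and Acadvl at 0.06. Lipe counts cannot be told apart from those of its antisense gene without strand. Pdk4 was the farthest below, at -0.93 (limits -1.02 to -0.85). The 592 cells had a median of 48.0% mitochondrial counts and 90 of them were cut fragments. The part of either in these values was not tested.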

How the data were processed

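Per the labels and the study's methods, 1 table of raw UMI counts covers all 763 cells. The authors ran zUMIs, which mapped the reads to GRCm38 with STAR 2.5.4b and tabulated molecules with featureCounts. The deposited gene values are whole counts, handled as estimated counts only because annotation rows with percentages share their columns. Spike-ins stayed apart. From these, CPM of summed class counts, exact Poisson and conditional binomial 95% limits and log2 ratios were computed (Python 3.11.15, numpy 2.4.6, scipy 1.17.1, pandas 2.3.3). TMM factors and median-of-ratios size factors were computed as edgeR and DESeq2 define them. The 5 Myh genes were left out of the gene counts. With 1 mouse the fold rule of 1.5 replaced a test. Members and lists were chosen with earlier results of these data known. Named genes were all members, with full values for those past 1.5-fold and for the member with most counts in each role, and up to 4 genes at each end of the wider pathway. Alternatives changed the scaling, the filters on cells and counts, the pooling, the depth, the class rule, the fold, the lanes and the plates. Protein identity of paralogs was not analysed here.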

Additional observations from a re-analysis of the deposited data

How the results depend on the processing

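Counts of members past the fold depended on the fold and on single plates. At least 1.5-fold higher were 15 members within plate 706, with 6 fast 2A and 21 fast 2X cells, and 20 within plate 709, with 8 and 11. Counts over all genes are given here only for the main setting and TMM factors. The counts of members in other settings are therefore not set against a background. A minimum of 2000 counts gave 5, a smaller fold gave 20 and a fold of 2 gave 2. The other settings gave counts within 1.5 times of 9, and leaving out each lane or plate gave 8 to 11. Members at least 1.5-fold lower numbered 0 with TMM factors, with median-of-ratios size factors, as a mean over cells, within plate 712, at 2000 counts and at 2-fold, 2 at the smaller fold and within plate 708, 3 within plate 707, and 0 to 1 when each lane or plate was left out, with 0 without lane 1 and without plate 705. The median log2 ratio was 0.65 and the summed ratio 0.67 within plate 709, and over lanes and plates left out they ran from 0.35 to 0.46 and from 0.36 to 0.44. Ucp3 turned to 0.58 within plate 712. The median rho with the Myh2 share of 0.19 was 0.13 in thinned cells, 0.0061 within fast 2X cells and -0.00022 within fast 2A cells. For these changes the cause was not tested, other than that fewer cells or genes enter by construction.

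With 1 mouse, lanes and plates are technical divisions, and no statement reaches beyond this animal. Members under 500 counts had limits too wide to read a direction, apart from Plin5. No paired analysis was possible because the 2 numbered samples are lanes of 1 group. Ratios within plates compare cells of the same mouse and are given as values.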
